A study of Mus musculus with 18 samples.

Results

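The comparison set naive CD4+ T cells against CD4+ T cells of the same T cell receptor transgenic kind that had met the strongest antigen signal of the study. It used every named gene in 6 of the 18 libraries, 3 libraries of each group, chosen by their sample titles. The cells carried the 5CC7 receptor, also written 5C.C7, a transgenic receptor that recognises a cytochrome c peptide. The strong-signal group, called 10 µM here, came from naive cells kept for 4 days with P13.9 cells, a fibroblast line used to present antigen, that had been loaded with the peptide pPCC at 10 µM. The label of the naive group says only that its cells were naive CD4+ cells. Both groups are labelled as CD4+ T cells from spleen and lymph node. The other 12 libraries are 3 of P13.9 cells alone and 9 of T cells that met 0.01, 0.1 or 1.0 µM of the peptide. The study asks how the strength of the receptor signal sets T helper fate, and its title names GATA3 and T-bet, which Tbx21 encodes. RNA was read with QuantSeq, a method that sequences the 3′ end of messages. The labels give no strain, age or sex of the mice and no sort for naive cells, and they do not say whether a group's samples were taken from different mice. The p-values therefore measure only the spread between these samples. A group can also be no purer than the cells harvested with it, so transcripts of cells other than T cells are reported beside the results they touch.

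A naive T cell is a small, resting cell that circulates through lymph nodes and keeps itself quiescent through transcription factors such as KLF2, FOXO1 and TCF1. Antigen and costimulation push it into growth. Immediate early genes switch on first and fade within hours, MYC and mTOR drive glycolysis, amino acid uptake and ribosome building, and the cell then divides rapidly. In the days that follow, cytokines and the receptor signal set an effector fate, with T-bet leading the T helper 1 programme and GATA3 the T helper 2 programme.

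Values below are the authors' normalized counts, that is, reads divided by 1 size factor per library, and a log2 change is the difference of group means of log2(value + 1), 10 µM minus naive, ± its standard error in limma with n = 3 per group. Depth differed strongly between the groups. The naive libraries held 27784, 53273 and 97752 reads in named genes and the 10 µM libraries 372839 to 659694, so that 1 read was worth a value of 2.17 to 6.55 in naive cells and 0.192 to 0.343 at 10 µM. Naive 1, the shallowest library, stood apart: over genes it correlated with the other naive libraries at 0.523 and 0.545, against 0.773 between those, while the 10 µM libraries correlated with each other at 0.972 to 0.978. Its summed values of glycolysis genes (589.8) and of mitosis genes (779.9) were higher than those of naive 2 (308.4 and 374.8) and naive 3 (233.9 and 324.8). Where a group had at most 3 reads for a gene, the reads of the groups were divided by the summed size factors and their ratio is given with an exact interval. Those factors differed 13.4-fold between the groups and the reads in named genes 8.32-fold. Divided by reads in named genes instead, each such ratio would be 1.61 times larger for genes higher at 10 µM and 1.61 times smaller for genes lower there. Long sample numbers in the labels fall into 2 runs, with naive, P13.9, 0.01 and 1.0 µM in the first and 0.1 and 10 µM in the second. What a run stands for the labels do not say, and for 10 µM against naive, run and group cannot be told apart. The change of the 1.0 µM cells from the same naive libraries is therefore printed beside some results, with no comparison of the 2 changes because they share the naive libraries.

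Of 3484 genes with a mean value of at least 10 over the 6 libraries, 1868 were called at an adjusted p below 0.05, which is 53.6% of the genes tested. Higher calls at 10 µM numbered 595 (17.1%) and lower calls 1273 (36.5%), the background for the list counts below. A gene whose mean in 1 group was below 10 passed the filter only through the other group. The counts and medians of the lists therefore describe the genes that passed and do not measure how common a rise or fall was. Without naive 1 the calls were 848 higher and 1547 lower, and these included 589 of the 595 and 1261 of the 1273. The split between directions followed the scaling. With the authors' scaling the median gene changed by -0.36, and with libraries set to equal totals it changed by 0.26, which gave 1050 higher and 939 lower calls. TMM scaling gave 986 higher and 980 lower calls and quantile normalization 933 and 941. All 595 higher calls were also made under those 3 scalings, and 900 of the 1273 lower calls were. Each of the 3 moved the median gene upwards, to 0.17 with TMM and to 0.12 with quantile normalization. They therefore tested the lower calls and hardly the higher ones. The 2 counts do not show that rises were firmer than falls. The higher calls fell more in number when any 1 of the 10 µM libraries was left out. They were then 271 (A), 278 (B) and 301 (C), against 1039, 1029 and 1074 lower calls. Such fits hold fewer libraries, so a call lost in them does not by itself mean that the change came from the library left out. In all 6 fits without 1 library 237 of the 595 and 995 of the 1273 were called, and with the 10 µM reads thinned to the naive depth 431 and 1087 were. A stricter rule that also asked for a mean of 20 or more and for groups without overlap left 1013 of the calls. In bulk RNA, fewer cells of a type and less RNA per cell cannot be told apart, which holds for every change below.

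**Figure D1:**
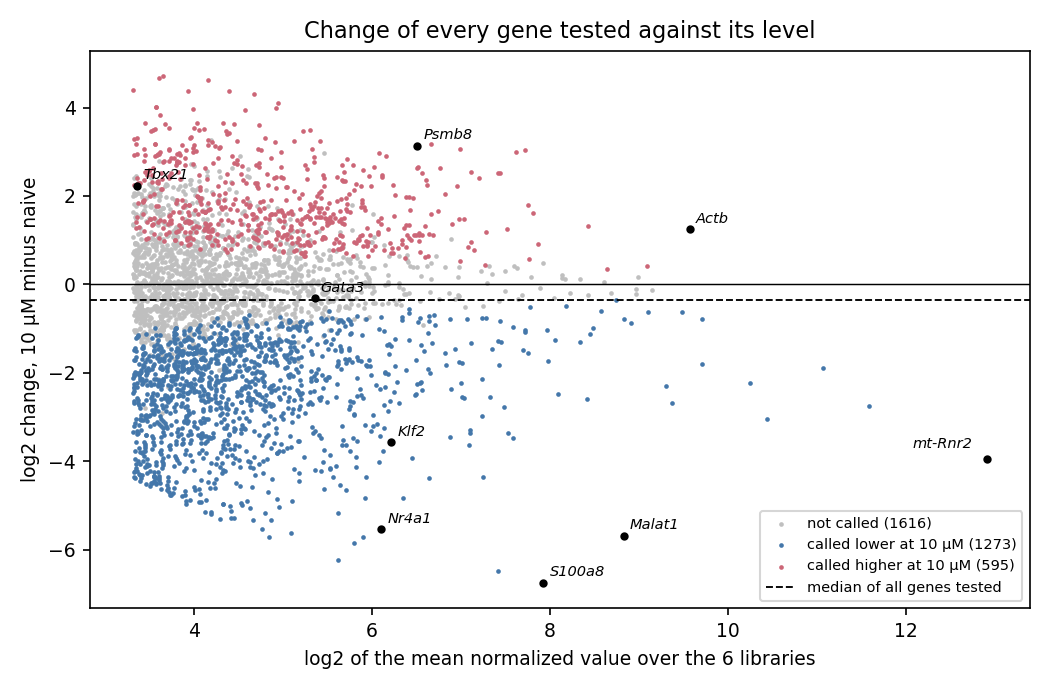
The plot sets the log2 change of each of the 3484 genes tested (10 µM minus naive, vertical axis) against the log2 of its mean normalized value over the 6 libraries (horizontal axis), coloured by call. The dashed line is the median change of -0.36, S100a8 lies lowest at -6.74 and the transcription factor gene Gata3 lies close to the line.

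The factors that keep a naive T cell naive had lower messages at 10 µM. All 14 listed naive transcription factors passed the filter on low values, and 12 of them fell, with a median log2 change of -2.28 beside -0.36 over all genes. Klf2, the factor that drives circulation genes and quiescence, measured 78.6, 164 and 173 in the naive libraries and 11.6, 10.3 and 8.81 at 10 µM. Every naive library lay above every 10 µM library, and the change was -3.56 ± 0.34 (adjusted p = 0.000262). Satb1, a chromatin organiser of T cells, measured 183, 238 and 323 in the naive libraries and 55.1, 50.7 and 57.3 at 10 µM, a change of -2.13 ± 0.22 (adjusted p = 0.000318). Foxp1, which restrains naive cells from leaving quiescence, measured 45.9, 129 and 145 in the naive libraries and 9.32, 4.796 and 8.24 at 10 µM and changed by -3.55 ± 0.47 (adjusted p = 0.00075). In both genes the groups were apart, with naive 1 the lowest naive library. Bach2, a repressor of effector genes, fell by 2.25 ± 0.31 on the log2 scale. Tcf7, which encodes TCF1, measured 59.0, 50.8 and 73.6 in the naive libraries and 29.4, 25.3 and 26.1 at 10 µM, a change of -1.14 ± 0.22 (adjusted p = 0.00406), but its fall did not pass with equal totals (adjusted p = 0.0831) or TMM scaling (adjusted p = 0.052). Lef1, its close relative, had no read in naive 1 and values of 23.4 and 30.3 in naive 2 and 3 against 7.19 to 9.89 at 10 µM. Its change of 0.03 ± 1.22 was not called, and without naive 1 it was -1.57 (adjusted p = 0.00225). All 14 genes passed the test without naive 1. In the 1.0 µM cells Klf2 differed from the naive libraries by -3.003, Satb1 by -1.81 and Tcf7 by -1.87.

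Receptors for circulation and lymph node entry fell in part. Of 12 listed genes 7 passed the filter, and 5 of those fell, none rose. S1pr1, the receptor that lets T cells leave lymph nodes and a target of KLF2, measured 125, 125 and 134 in the naive libraries and 11.9, 13.02 and 12.6 at 10 µM. The naive values lay close together, about 10 times those at 10 µM, and the change was -3.25 ± 0.19 (adjusted p = 0.000107). Il7r, the receptor chain for the survival cytokine interleukin-7, measured 19.7, 31.2 and 32.5 in the naive libraries and 5.93, 4.796 and 7.47 at 10 µM, a change of -2.01 ± 0.35 (adjusted p = 0.00258). Ccr7, the chemokine receptor for lymph node entry, measured 65.5, 58.6 and 102 in the naive libraries and 28.2, 20.6 and 27.0 at 10 µM and changed by -1.51 ± 0.27 (adjusted p = 0.0029). The groups did not overlap for either gene. Cxcr3, a receptor of T helper 1 cells for inflamed tissue, had no read in naive cells and 163 reads at 10 µM, at least 4.05-fold higher against a floor of 3 reads over the naive group.

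Most tested genes that hold cells out of division fell. Of 16 listed quiescence and antiproliferative genes, 12 passed the filter, 9 fell and 1 rose, and the median change was -2.85. Btg1, an antiproliferative factor that promotes message decay in resting T cells, measured 91.7, 137 and 126 in the naive libraries and 2.26, 3.77 and 3.45 at 10 µM, a change of -4.84 ± 0.30 (adjusted p = 0.000113). Btg2, its relative, measured 91.7, 105 and 102 in the naive libraries and 9.60, 13.7 and 13.2 at 10 µM and changed by -2.95 ± 0.23 (adjusted p = 0.000184). Cdkn1b, which encodes the kinase inhibitor p27, measured 85.2, 66.4 and 69.3 in the naive libraries and 12.99, 9.25 and 12.5 at 10 µM and changed by -2.58 ± 0.25 (adjusted p = 0.000265). None of these groups overlapped. Tsc22d3, a glucocorticoid-induced gene also known as GILZ, changed by -4.21 ± 0.40 (adjusted p = 0.000265). The gene that rose was Ddit4, which encodes the mTOR inhibitor REDD1. It measured 78.6, 23.4 and 10.8 in the naive libraries and 98.6, 128 and 119.9 at 10 µM, a change of 2.03 ± 0.61 (adjusted p = 0.0254), and the call was lost without naive 2, naive 3 or any 1 of the 10 µM libraries (adjusted p from 0.0521 to 0.0809). The Ddit4 value of naive 1 lay closer to the 10 µM libraries than to the other naive libraries.

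**Figure D2:**
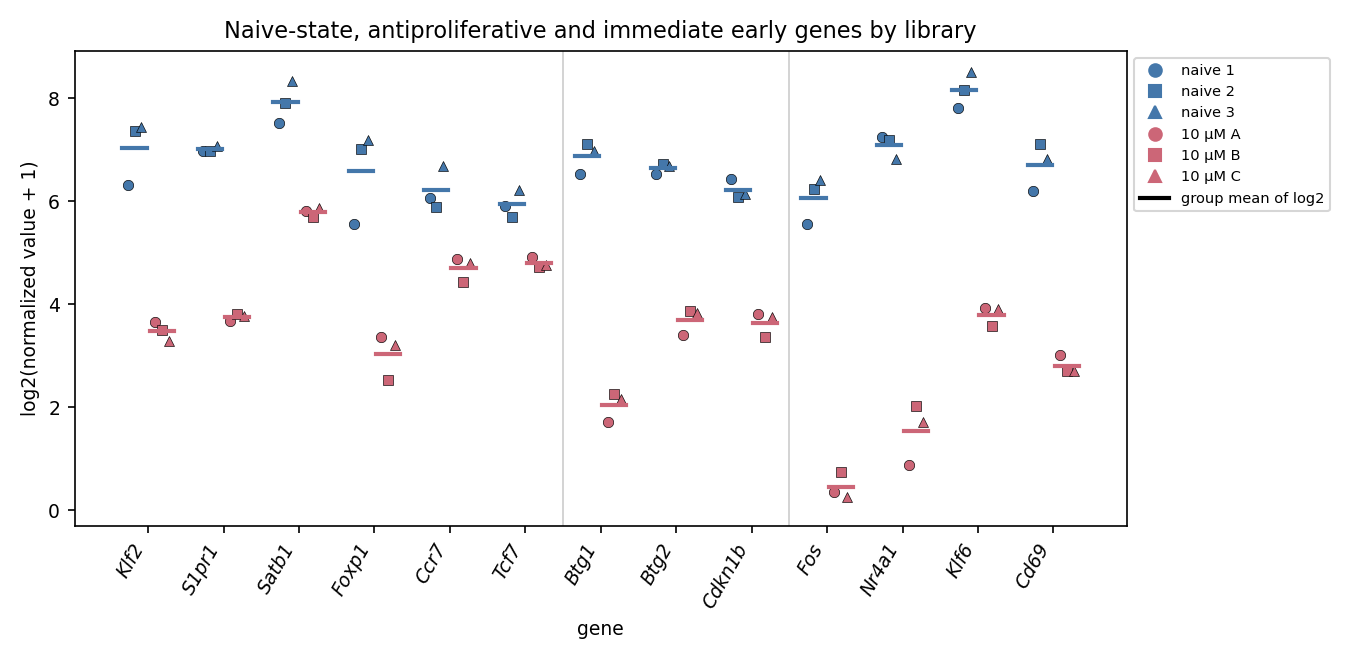
The plot shows log2(normalized value + 1) of 13 genes in each naive library (blue) and each 10 µM library (red), with bars at the group means. Every naive point lies above every 10 µM point of the same gene, from Fos, which is near 0 at 10 µM, to Tcf7, whose groups lie closest together.

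The immediate early genes, the transient transcription factors and feedback genes of a fresh stimulus, were high in the naive libraries and low after 4 days. Of 18 listed genes 16 passed the filter, 14 fell and none rose, and the median change of -4.17 was the lowest of the 35 gene lists. Fos, an AP-1 subunit, measured 45.9, 74.2 and 84.5 in the naive libraries and 0.282, 0.685 and 0.192 at 10 µM, a change of -5.61 ± 0.41 (adjusted p = 0.000139). Nr4a1, an orphan receptor gene that reports receptor signalling in T cells, measured 151, 144 and 113 in the naive libraries and 0.847, 3.08 and 2.30 at 10 µM and changed by -5.54 ± 0.36 (adjusted p = 0.000114). Klf6 measured 223, 285 and 364 in the naive libraries and 14.1, 11.0 and 14.0 at 10 µM and changed by -4.36 ± 0.23 (adjusted p = 7.78e-05). In all 3 genes the groups were far apart. Zfp36, which encodes a message-destabilising protein, changed by -4.10 ± 0.27 (adjusted p = 0.000114). Fosb, another AP-1 subunit, had 25 reads in the naive libraries and 2 at 10 µM, a ratio per size factor, naive over 10 µM, of 168 (exact 95% counting interval 41.8 to 1461), or 104 (25.9 to 905) per reads in named genes. Ier2 was not called (adjusted p = 0.986): it had no read in naive 1, and without that library its change was -1.64 (adjusted p = 0.00218). Cd69, the early activation marker of the T cell surface, went the same way, with 72.1, 137 and 113 in the naive libraries and 7.06, 5.48 and 5.55 at 10 µM, a change of -3.90 ± 0.30 (adjusted p = 0.000184). The heat shock gene Hspa1a had 51 reads in the naive libraries and 2 at 10 µM, a ratio of 342 (exact 95% counting interval 90.0 to 2902) in the same direction. The same naive libraries held neutrophil transcripts, with a summed marker value of 924 to 1265 against 6.51 to 8.81 at 10 µM, and mitochondrial messages at 14.9% to 15.8% of reads against 2.77% to 3.54%. Neutrophils also express several of these genes, among them Fos, Btg1 and Klf6, and the part of those transcripts in the falls was not tested.

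CREB binds the cAMP response element, and many immediate early genes carry this element close to their start. The palindrome TGACGTCA was therefore searched, after the falls were known, in the 250 bases before each RefSeq gene start (build GRCm38.p6). It occurred in 2 of 19 promoters of 15 listed immediate early genes, or 10.5%, beside 3.38% of the promoters of genes tested and 1.55% of all promoters. The 2 genes were Ppp1r15a, which encodes the stress-response phosphatase subunit GADD34 and changed by -4.24 ± 0.48 (adjusted p = 0.000409), and Dusp1, a kinase phosphatase gene that changed by -3.81 ± 0.51 (adjusted p = 0.000756). Dusp1 measured 26.2, 66.4 and 82.3 in the naive libraries and 4.52, 1.71 and 2.68 at 10 µM. Their upstream bases are shown because these are the fallen genes with the element, 5′ to 3′, with the element in capitals. The Ppp1r15a window is chr7:45526269-45526518, minus strand, and the Dusp1 window is chr17:26508473-26508722, minus strand.
Ppp1r15a: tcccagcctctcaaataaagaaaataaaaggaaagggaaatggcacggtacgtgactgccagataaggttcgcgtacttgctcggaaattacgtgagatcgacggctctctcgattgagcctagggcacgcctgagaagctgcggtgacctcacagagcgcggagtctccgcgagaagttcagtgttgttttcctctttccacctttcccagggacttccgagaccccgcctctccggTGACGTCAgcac
Dusp1: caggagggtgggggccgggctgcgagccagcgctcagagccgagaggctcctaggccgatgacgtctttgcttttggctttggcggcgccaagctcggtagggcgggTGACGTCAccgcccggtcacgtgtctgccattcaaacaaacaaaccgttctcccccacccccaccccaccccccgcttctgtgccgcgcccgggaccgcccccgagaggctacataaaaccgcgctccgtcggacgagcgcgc

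Genes of the antigen receptor moved in both directions. Of 19 listed genes of the T cell receptor complex and its proximal kinases 17 passed the filter. Of these 3 were higher, 4 lower and 10 not called, with a median change of 0.13. The higher calls lay near the 17.1% of all genes tested, and the lower calls below the 36.5%. Trac, the constant region of the alpha chain, measured 544, 632 and 596 in the naive libraries and 590.0, 575 and 456 at 10 µM. Cd4 had 9 reads in the naive libraries, none of them in naive 1, and 258 at 10 µM, and Cd8a had none in the naive libraries. Lck, the kinase bound to CD4, measured 65.5, 42.9 and 60.6 in the naive libraries and 102, 111 and 103 at 10 µM, a change of 0.91 ± 0.21 (adjusted p = 0.00771). Its groups did not overlap. Fyn, the related kinase, measured 26.2, 54.7 and 49.8 in the naive libraries and 9.32, 6.85 and 7.66 at 10 µM and fell, a change of -2.26 ± 0.36 (adjusted p = 0.00158). Ptprc, which encodes the phosphatase CD45, measured 91.7, 172 and 126 in the naive libraries and 23.4, 20.2 and 23.4 at 10 µM and changed by -2.44 ± 0.26 (adjusted p = 0.000338). Lat, the adaptor, and Cd3d rose by 0.65 and 1.00, and the Lat call was lost without any 1 of the 10 µM libraries (adjusted p from 0.0962 to 0.182) and the Cd3d call without any 1 of the 10 µM libraries (adjusted p from 0.0977 to 0.133). Trbc1, a constant region of the beta chain, fell by 0.79 in the deposited scaling (adjusted p = 0.00208), and its change was 0.41 and not called after quantile normalization.

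Among activation markers and costimulatory receptors, 10 of 21 listed genes passed the filter, and 2 were higher and 4 lower. Both counts lay near the shares of all genes tested, 17.1% higher and 36.5% lower. Without naive 1 there were 3 higher and 6 lower, and the median moved from -0.46 to -1.37, while with equal totals it was 0.14. Cd28, the main costimulatory receptor of naive cells, measured 72.1, 70.3 and 99.6 in the naive libraries and 20.1, 17.8 and 23.4 at 10 µM, a change of -1.92 ± 0.23 (adjusted p = 0.000531). Icos, its inducible relative, measured 13.1, 42.9 and 26.0 in the naive libraries and 8.47, 7.19 and 7.47 at 10 µM and changed by -1.56 ± 0.45 (adjusted p = 0.0214). The Icos call was lost with equal totals (adjusted p = 0.0827) and without naive 3 or any 1 of the 10 µM libraries (adjusted p from 0.0531 to 0.0652). Il2ra, the interleukin-2 receptor alpha chain CD25, measured 19.7, 50.8 and 12.99 in the naive libraries and 65.5, 69.2 and 57.7 at 10 µM, a change of 1.40 ± 0.45 (adjusted p = 0.0324). Naive 2 lay closest to the 10 µM libraries, and the rise did not pass without naive 1, naive 3 or any 1 of the 10 µM libraries (adjusted p from 0.0547 to 0.0963). Tnfrsf4, which encodes the costimulatory receptor OX40, changed by 1.96 ± 0.66 (adjusted p = 0.0369), a call lost without any 1 of the 10 µM libraries (adjusted p from 0.0733 to 0.104). Cd44, the adhesion receptor used as a memory marker, measured 52.4, 54.7 and 56.3 in the naive libraries and 31.4, 30.8 and 32.6 at 10 µM and changed by -0.77 ± 0.19 (adjusted p = 0.0108). That fall was not called with equal totals (-0.13, adjusted p = 0.571) or without any 1 of the 10 µM libraries (adjusted p from 0.0525 to 0.0617).

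Of the chains of the interleukin-2 receptor, the beta chain rose, and the alpha chain, CD25, was called higher with all libraries only, apart from the fit without naive 2. Il2rb, the beta chain that pairs with CD25, measured 85.2, 62.5 and 54.1 in the naive libraries and 159, 184 and 174 at 10 µM, a change of 1.37 ± 0.20 (adjusted p = 0.0012), and the groups did not overlap. Il2rg, the shared gamma chain, measured 45.9, 58.6 and 54.1 in the naive libraries and 53.1, 56.9 and 58.6 at 10 µM. Of 18 listed genes of interleukin-2 family signalling 15 passed the filter, 2 rose and 6 fell, and without naive 1 there were 2 and 10. With all libraries, the 2 and 6 of 15 lay near the shares of all genes tested, 17.1% higher and 36.5% lower. Jak1, the kinase of these receptors, changed by -1.33 ± 0.21 (adjusted p = 0.00161), Stat5a, a transcription factor they activate, by -1.91 ± 0.32 (adjusted p = 0.00211), and Socs3, a feedback inhibitor, by -3.06 ± 0.44 (adjusted p = 0.00103). Cish, another feedback gene, was not called (adjusted p = 0.835).

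Of the regulators named in the title, Tbx21 rose and Gata3 was not called. Tbx21, on chr11:97098007-97115331 in GRCm38, had 3 reads over the naive libraries and 201 at 10 µM. Its values were 1.31, 3.90 and 4.33 in the naive libraries and 17.2, 19.2 and 16.1 at 10 µM, a change of 2.23 ± 0.45 (adjusted p = 0.00491). Per size factor the ratio of reads was 4.99 (exact 95% counting interval 1.68 to 24.4), and per reads in named genes it was 8.06 (2.72 to 39.4). The naive 1 value was the 1 value of the table that is not a whole number of reads. With it at 0, at 1 read or missing the change was 2.64, 1.66 and 1.85 (adjusted p = 0.014, 0.00662 and 0.00788), and the call was lost without 10 µM A or 10 µM B (adjusted p from 0.0567 to 0.0613). Gata3, on chr2:9857078-9887953, measured 59.0, 35.1 and 43.3 in the naive libraries and 35.9, 40.8 and 32.2 at 10 µM. The groups overlapped and the change of -0.30 ± 0.25 was not called (adjusted p = 0.337). In the 1.0 µM cells Tbx21 differed from the naive libraries by 1.43 and Gata3 by 0.43.

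Of 17 listed T helper 1 genes 6 passed the filter, with 2 higher, Tbx21 and Il12rb1, and 2 lower. Beside these stand 17.1% higher and 36.5% lower calls over all genes tested. Il12rb1, a chain of the interleukin-12 receptor, had 2 reads in naive cells and 322 at 10 µM, a ratio per size factor of 11.999 (exact 95% counting interval 3.29 to 99.5). Its call was lost without naive 2, naive 3 or any 1 of the 10 µM libraries (adjusted p from 0.0647 to 0.0937). Ccl5, the chemokine RANTES, measured 52.4, 35.1 and 84.5 in the naive libraries and 13.8, 11.99 and 10.5 at 10 µM and changed by -2.07 ± 0.35 (adjusted p = 0.00214). Irf1, an interferon-induced factor, changed by -0.74 ± 0.24 (adjusted p = 0.0317) and by -0.10 with equal totals (adjusted p = 0.702). The call was also lost without naive 2, naive 3 or any 1 of the 10 µM libraries (adjusted p from 0.0682 to 0.116). Ifng, the T helper 1 cytokine, had 5 reads in naive cells and 4 at 10 µM and was not tested. Of 13 listed T helper 2 genes 5 passed, and 1 fell. That gene was Maf, a factor for interleukin-4 and interleukin-10, with 32.8, 27.3 and 26.0 in the naive libraries and 3.39, 2.06 and 3.83 at 10 µM, a change of -2.88 ± 0.36 (adjusted p = 0.000601). Il13, a T helper 2 cytokine, measured 19.7, 39.0 and 10.8 in the naive libraries and 12.99, 5.82 and 11.5 at 10 µM and was not called (adjusted p = 0.136), and without naive 3 its change was -1.44 (adjusted p = 0.0478). Il4 had 0 reads in naive cells and 4 at 10 µM.

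Among regulators of effector fate, 10 of 15 listed genes passed the filter, 5 fell and 1 rose. Of all genes tested 36.5% fell and 17.1% rose. Rel, the NF-kappa-B subunit c-Rel, measured 32.8, 42.9 and 60.6 in the naive libraries and 0.847, 4.11 and 2.87 at 10 µM, a change of -3.76 ± 0.48 (adjusted p = 0.000633). Ikzf2, which encodes the regulatory T cell factor Helios, changed by -4.60 ± 0.63 (adjusted p = 0.000822), and Nfkb1 by -1.69 ± 0.27 (adjusted p = 0.00158). Batf3, a partner of AP-1 factors, had 3 naive reads and 195 at 10 µM, a ratio per size factor of 4.84 (exact 95% counting interval 1.63 to 23.7), and its call was lost without 10 µM A or 10 µM B (adjusted p from 0.0722 to 0.0828). Irf4, which scales with receptor signal, measured 6.55, 11.7 and 10.8 in the naive libraries and 16.7, 11.99 and 11.3 at 10 µM and was not called (adjusted p = 0.349), though with equal totals it was higher (1.04, adjusted p = 0.0369). No granzyme tested, the proteases of cytotoxic granules, was called higher. Gzmb measured 19.7, 35.1 and 4.33 in the naive libraries and 15.8, 9.59 and 12.8 at 10 µM, with overlapping groups and a change of -0.23 ± 0.68 (adjusted p = 0.789). Gzma measured 39.3, 27.3 and 12.99 in the naive libraries and 3.11, 5.82 and 4.21 at 10 µM and fell, a change of -2.26 ± 0.48 (adjusted p = 0.00604). Markers of CD8 and NK cells, which also carry Gzma, summed to 26.2 to 34.6 in naive cells and 1.03 to 1.98 at 10 µM. The naive sum held no read of Cd8a or Cd8b1, which had 5 and 10 reads at 10 µM. Klrk1, with 19 naive reads and 1 at 10 µM, was the 1 marker of the list that was tested. The part of such cells in the fall of Gzma was not tested.

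Genes of DNA replication were prominent among the rises. Of 39 listed genes of DNA replication and S phase 26 passed the filter, and 20 rose and none fell, with a median change of 2.004. Of the 26 genes 5 had at most 3 naive reads. These and others with a naive mean below 10, such as Mcm2 and Fen1, passed only through the 10 µM libraries. The count therefore describes the genes that passed and does not measure how common the rise was. Mcm3, a subunit of the helicase that opens replication origins, measured 19.7, 11.7 and 12.99 in the naive libraries and 94.1, 90.8 and 80.8 at 10 µM, a change of 2.53 ± 0.25 (adjusted p = 0.000293). Lig1, the ligase that joins replicated fragments, measured 32.8, 7.81 and 15.2 in the naive libraries and 123, 129 and 123 at 10 µM and changed by 2.90 ± 0.45 (adjusted p = 0.00142). Dut, which keeps uracil out of DNA, measured 52.4, 27.3 and 12.99 in the naive libraries and 166, 143 and 166 at 10 µM and changed by 2.52 ± 0.44 (adjusted p = 0.00249). In these 3 genes no library of one group reached the other. Rrm2, the subunit of ribonucleotide reductase that limits DNA precursors, had 3 naive reads and 648 at 10 µM, a ratio per size factor of 16.1 (exact 95% counting interval 5.48 to 78.3).

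E2F factors drive many of these genes through elements near the start. The motifs TTTCGCGC and GCGGGAAA, searched on both strands in the 250 bases before each start, occurred in 8 of 39 promoters (20.5%) of 31 listed replication genes with an entry, in 2.82% of the promoters of genes tested and in 1.15% of all promoters. Among the genes that rose, those with a motif and the smallest adjusted p were Mcm6, Mcm7 and Mcm5, 3 more subunits of the helicase. Mcm6 changed by 1.84 ± 0.37 (adjusted p = 0.00487), Mcm7 by 2.37 ± 0.53 (adjusted p = 0.00753) and Mcm5 by 2.44 ± 0.59 (adjusted p = 0.0101). Mcm6 measured 32.8, 19.5 and 10.8 in the naive libraries and 68.9, 68.2 and 76.2 at 10 µM. Mcm7 measured 39.3, 7.81 and 10.8 in the naive libraries and 89.5, 82.6 and 75.1 at 10 µM, and Mcm5 measured 52.4, 11.7 and 8.66 in the naive libraries and 103, 103 and 97.1 at 10 µM. Their windows, printed because these 3 helicase subunits moved together and each holds 1 of the 2 motifs or its reverse complement, lie at chr1:128359706-128359955, minus strand, at chr5:138171884-138172133, minus strand and at chr8:75109259-75109508, plus strand, with the motif in capitals. The matches begin 106, 165 and 153 bases before the start.
Mcm6: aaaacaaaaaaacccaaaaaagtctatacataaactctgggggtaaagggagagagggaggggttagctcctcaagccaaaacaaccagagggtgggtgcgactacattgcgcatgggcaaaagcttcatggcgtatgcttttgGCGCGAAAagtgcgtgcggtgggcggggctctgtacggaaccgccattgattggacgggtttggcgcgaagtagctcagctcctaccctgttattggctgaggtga
Mcm7: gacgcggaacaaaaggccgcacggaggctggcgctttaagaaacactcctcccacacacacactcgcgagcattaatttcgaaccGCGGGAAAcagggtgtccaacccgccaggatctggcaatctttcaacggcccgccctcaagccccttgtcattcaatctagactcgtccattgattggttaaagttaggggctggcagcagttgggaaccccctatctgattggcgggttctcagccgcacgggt
Mcm5: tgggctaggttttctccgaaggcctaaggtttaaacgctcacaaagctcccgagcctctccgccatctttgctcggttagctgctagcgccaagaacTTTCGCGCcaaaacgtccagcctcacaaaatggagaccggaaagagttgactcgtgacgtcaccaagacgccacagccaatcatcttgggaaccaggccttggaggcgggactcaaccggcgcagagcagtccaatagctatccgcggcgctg

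Of 36 listed mitosis genes 23 passed the filter, 16 higher and 1 lower, with a median change of 2.62. Of the 23 genes 4 had at most 3 naive reads. These and others with a naive mean below 10, such as Tpx2 and Racgap1, passed only through the 10 µM libraries. The count and the median therefore only describe the genes that passed. Without naive 1, the naive library with their highest summed value, 22 were higher and the median was 3.27. Ccnb1, the mitotic cyclin B1, had no naive read and 289 reads at 10 µM, at least 7.18-fold higher against a floor of 3 reads over the group. The Ccnb1 call was lost without 10 µM A or 10 µM C (adjusted p from 0.053 to 0.0554). Ube2c, which tags cyclins for destruction, measured 6.55, 3.90 and 4.33 in the naive libraries and 45.8, 42.5 and 32.0 at 10 µM, a change of 2.80 ± 0.33 (adjusted p = 0.0005). Aurka, a kinase of the mitotic spindle, showed the unevenness of the naive libraries: it measured 26.2, 0 and 0 in the naive libraries and 35.9, 30.8 and 30.5 at 10 µM, a change of 3.47 ± 1.20 (adjusted p = 0.0422) and of 5.06 without naive 1, and the call was lost without naive 2, naive 3 or any 1 of the 10 µM libraries (adjusted p from 0.0937 to 0.14). Aurkb was not called with all libraries (adjusted p = 0.196) and was called without naive 1 (2.11, adjusted p = 0.000768). Smc4, a condensin subunit, fell, with 91.7, 113 and 165 in the naive libraries and 14.97, 18.8 and 17.8 at 10 µM, a change of -2.73 ± 0.26 (adjusted p = 0.000265). Mki67, the proliferation marker, had 2 naive reads and 70 at 10 µM, a ratio per size factor of 2.61 (exact 95% counting interval 0.696 to 22.0), and did not pass the filter. Per reads in named genes its ratio was 4.21 (1.12 to 35.4), so the interval held 1 on the former scale only. In G1, Ccnd3, the lymphocyte D cyclin, measured 65.5, 23.4 and 23.8 in the naive libraries and 129.9, 138 and 131 at 10 µM and rose by 1.97 ± 0.38 on the log2 scale (adjusted p = 0.00406).

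Most tested genes of central metabolism rose, beside 17.1% of all genes tested. Those with a naive mean below 10, such as Pgd, Fh1 and Ndufv2, passed the filter only through the 10 µM libraries. In glycolysis and glucose uptake, 16 of 24 listed genes passed the filter, 12 rose and none fell, with a median change of 2.29. Pfkp, an isoform of the committed step of glycolysis, measured 13.1, 11.7 and 15.2 in the naive libraries and 71.7, 82.2 and 70.3 at 10 µM, a change of 2.41 ± 0.22 (adjusted p = 0.000248). Pkm, the last enzyme of the pathway, measured 45.9, 35.1 and 17.3 in the naive libraries and 169, 169.6 and 147 at 10 µM and changed by 2.37 ± 0.34 (adjusted p = 0.000985). Tpi1, the triose isomerase, measured 32.8, 7.81 and 10.8 in the naive libraries and 122, 129.8 and 104 at 10 µM and changed by 2.97 ± 0.47 (adjusted p = 0.00163). The groups did not overlap in these genes. Eno1, the enolase, was not called (adjusted p = 0.298) and was higher with equal totals (1.099, adjusted p = 0.0374). In the citrate cycle 12 of 15 listed genes passed, with 8 higher and 1 lower, and Mdh2, the mitochondrial malate dehydrogenase, measured 19.7, 19.5 and 17.3 in the naive libraries and 97.7, 94.2 and 91.0 at 10 µM, a change of 2.27 ± 0.19 (adjusted p = 0.00021). The lower gene, Dlst, was not called with equal totals (adjusted p = 0.425), and the call was lost without naive 3 or any 1 of the 10 µM libraries (adjusted p from 0.0715 to 0.104). Among nuclear genes of the respiratory chain, 28 of 30 passed, 19 rose and 1 fell, with a median of 1.25. Cox5a, a subunit of complex IV, measured 32.8, 23.4 and 21.7 in the naive libraries and 133, 122 and 121 at 10 µM and changed by 2.25 ± 0.21 (adjusted p = 0.000263). Atp5a1, the alpha subunit of ATP synthase, measured 98.3, 97.6 and 132 in the naive libraries and 270.0, 255 and 249 at 10 µM and changed by 1.24 ± 0.17 (adjusted p = 0.00075).

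Transcripts encoded by the mitochondrial genome went the other way. Of 15 listed, 9 had a named entry in the table, and all 9 passed the filter and fell, with a median of -2.58. The rest, among them mt-Co3 and mt-Atp6, had no named entry and could not be tested. The large ribosomal RNA mt-Rnr2 measured 13684, 15734 and 13884 in the naive libraries and 1059, 782 and 1000.3 at 10 µM, a change of -3.94 ± 0.14 (adjusted p = 1.02e-05). The complex IV gene mt-Co1 measured 1173, 1093 and 1172 in the naive libraries and 191, 171 and 168 at 10 µM and changed by -2.69 ± 0.12 (adjusted p = 2.66e-05). The complex III gene mt-Cytb changed by -3.05 ± 0.14 (adjusted p = 3.48e-05). In each the groups were far apart, and of the 9 falls 6 were also called under the 3 other scalings, since after quantile normalization mt-Rnr2 changed by -1.05 (adjusted p = 0.0641) and the complex I gene mt-Nd1 by 0.066, neither of them called, and with equal totals the complex I gene mt-Nd6 was not called (adjusted p = 0.126). The call of mt-Nd6 was also lost without naive 2 or 10 µM A or 10 µM B (adjusted p from 0.0504 to 0.0592). The nuclear genes of the respiratory chain thus mostly rose while its mitochondrial genes with a named entry fell. The unnamed features of the table, left out of the tests, took 12.5% to 15.7% of the naive reads and 2.71% to 3.07% at 10 µM.

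Genes of nucleotide and serine supply rose more often than they fell, beside 17.1% higher and 36.5% lower calls over all genes tested. Of 14 listed genes of serine and one-carbon metabolism 11 passed the filter, 5 rose and 1 fell, and without naive 1 these were 8 and 2. Psat1, a serine synthesis enzyme, measured 85.2, 19.5 and 12.99 in the naive libraries and 171, 189 and 175 at 10 µM, a change of 2.62 ± 0.60 (adjusted p = 0.00843). Shmt2, the mitochondrial serine hydroxymethyltransferase, had 3 naive reads and 429 at 10 µM, a ratio per size factor of 10.7 (exact 95% counting interval 3.62 to 51.9). The gene that fell was Atf4, the factor known to induce this pathway, with 164, 363 and 407 in the naive libraries and 101, 105 and 103 at 10 µM, a change of -1.48 ± 0.32 (adjusted p = 0.00698). Among 12 of 21 listed purine and pyrimidine genes that passed, 8 rose and none fell. Nme1, a nucleoside diphosphate kinase, measured 19.7, 27.3 and 23.8 in the naive libraries and 81.1, 70.6 and 77.4 at 10 µM and changed by 1.66 ± 0.21 (adjusted p = 0.000629). Gart, an enzyme of purine synthesis, measured 6.55, 15.6 and 2.17 in the naive libraries and 46.9, 50.0 and 38.7 at 10 µM and changed by 2.64 ± 0.57 (adjusted p = 0.00642). Of 11 listed amino acid transporters 6 passed, 2 rose and 1 fell, and without naive 1 these were 2 and 3. Slc7a5, the large neutral amino acid carrier, measured 39.3, 39.0 and 30.3 in the naive libraries and 89.0, 103 and 104 at 10 µM and changed by 1.43 ± 0.19 (adjusted p = 0.000795). Slc1a5, a glutamine carrier, changed by 1.70 ± 0.34 (adjusted p = 0.00449). Slc38a2, another glutamine carrier and an ATF4 target, measured 190.1, 269 and 303 in the naive libraries and 16.1, 18.8 and 22.8 at 10 µM, a change of -3.64 ± 0.24 (adjusted p = 0.000114). Srm, the spermidine synthase, changed by 3.05 ± 0.95 (adjusted p = 0.0285), a call lost without any 1 of the 10 µM libraries (adjusted p from 0.0638 to 0.0732), and Fdps, an enzyme of cholesterol synthesis, had 2 naive reads and 257 at 10 µM, a ratio of 9.58 (exact 95% counting interval 2.62 to 79.5), its call lost without 10 µM A (adjusted p = 0.0577). Of 9 cholesterol synthesis genes that passed, of 20 listed, 2 rose.

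Genes of the translation machinery were called in both directions, beside 17.1% higher and 36.5% lower calls over all genes tested. Of 53 listed cytosolic ribosomal protein genes 39 passed the filter, 3 rose, 13 fell and 23 were not called. Their median of -0.22 lay close to that of all genes and turned to 0.42 with equal totals. Such genes have near-identical pseudogenes, to which reads may have been split. Rpl22 measured 203, 187 and 212 in the naive libraries and 58.7, 47.6 and 68.8 at 10 µM, a change of -1.78 ± 0.18 (adjusted p = 0.000314), and Rpl3 measured 19.7, 23.4 and 19.5 in the naive libraries and 72.6, 63.0 and 51.0 at 10 µM and changed by 1.52 ± 0.23 (adjusted p = 0.00131). Initiation factors divided likewise, with 19 of 23 passing, 5 higher and 5 lower. Eif5a, the factor that carries hypusine, measured 39.3, 50.8 and 21.7 in the naive libraries and 145, 135 and 138 at 10 µM and changed by 1.95 ± 0.30 (adjusted p = 0.00145), while Eif5 changed by -2.36 ± 0.27 (adjusted p = 0.000411). For nucleolar ribosome assembly genes and Myc, 21 of 33 passed, with 6 higher and 4 lower. Ncl, the nucleolar protein nucleolin, measured 138, 203 and 201 in the naive libraries and 61.0, 64.7 and 66.5 at 10 µM, a change of -1.46 ± 0.20 (adjusted p = 0.000762), and Nhp2, a small nucleolar particle protein, changed by 1.11 ± 0.24 (adjusted p = 0.00635). Myc had 2 naive reads and 74 at 10 µM, a ratio per size factor of 2.76 (exact 95% counting interval 0.737 to 23.2) and per reads in named genes of 4.45 (1.19 to 37.4), and was not tested. CACGTG, the E box read by MYC, was in 1 of 30 promoters of 27 of these genes (3.33%), beside 9.15% for genes tested.

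Aminoacyl-tRNA synthetases, which charge transfer RNAs, had 16 of 20 listed genes past the filter, 6 higher and 1 lower. Over all genes tested 17.1% were higher and 36.5% lower. Gars, for glycine, measured 6.55, 11.7 and 10.8 in the naive libraries and 56.2, 55.8 and 52.1 at 10 µM, a change of 2.42 ± 0.29 (adjusted p = 0.000506), with no overlap. Kars, for lysine, measured 0, 3.90 and 6.50 in the naive libraries and 35.0, 45.2 and 40.4 at 10 µM and changed by 3.62 ± 0.72 (adjusted p = 0.00442). The gene that fell was Eprs, for glutamate and proline, with 39.3, 42.9 and 84.5 in the naive libraries and 19.8, 18.5 and 19.5 at 10 µM, a change of -1.40 ± 0.32 (adjusted p = 0.0086), not called with equal totals (adjusted p = 0.0582). The composite ATF4 motif TGATGNAAT was in 2 of 12 promoters (16.7%) of 12 listed synthetase genes with an entry, in none of 14 and 9 promoters of the serine and transporter lists, in 0.235% of the promoters of genes tested and in 0.816% of all promoters. The window of Gars, the called gene that holds it, lies at chr6:55037751-55038000, plus strand, with the motif in capitals on the opposite strand, 31 bases before the start.
Gars: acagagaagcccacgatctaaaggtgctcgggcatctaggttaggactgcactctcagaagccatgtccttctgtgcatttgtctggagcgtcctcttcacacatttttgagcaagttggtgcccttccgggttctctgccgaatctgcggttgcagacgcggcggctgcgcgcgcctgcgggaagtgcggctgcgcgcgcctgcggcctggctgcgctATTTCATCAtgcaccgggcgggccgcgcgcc

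Of the tested genes, 12 of 29 proteasome subunits and 7 of 10 genes of the immunoproteasome and class I presentation rose, beside 17.1% of all genes tested. The other 17 of these subunits, of 31 listed, were not called, and without naive 1 there were 18 higher and 2 lower. The median change was 0.98. Psmb6, a catalytic subunit of the standard particle, measured 13.1, 11.7 and 28.2 in the naive libraries and 96.0, 90.8 and 73.2 at 10 µM, a change of 2.33 ± 0.34 (adjusted p = 0.0012). The 10 genes of the immunoproteasome and class I presentation, of 13 listed, had a median of 1.76. Psmb8, which replaces a standard subunit in the immunoproteasome, measured 13.1, 31.2 and 12.99 in the naive libraries and 178, 171 and 139.6 at 10 µM and changed by 3.14 ± 0.35 (adjusted p = 0.000381). Psmb9 measured 19.7, 15.6 and 8.66 in the naive libraries and 98.0, 96.9 and 93.1 at 10 µM and changed by 2.70 ± 0.31 (adjusted p = 0.00042). Psmb10, the remaining inducible subunit, measured 13.1, 7.81 and 4.33 in the naive libraries and 74.0, 72.6 and 70.1 at 10 µM and changed by 3.07 ± 0.37 (adjusted p = 0.000526). For all 3 subunits the lowest 10 µM library stood more than 4 times above the highest naive one. Tap1, the peptide transporter, changed by 2.05 ± 0.24 (adjusted p = 0.000506). H2-K1, a class I heavy chain, measured 360.4, 347 and 444 in the naive libraries and 376, 422 and 387 at 10 µM and was not called (adjusted p = 0.795), though with equal totals it was higher (0.70, adjusted p = 0.00398). Of 22 listed interferon-stimulated genes 7 passed, 3 rose and 1 fell. Igtp, a GTPase induced by interferon-gamma, measured 13.1, 11.7 and 15.2 in the naive libraries and 50.6, 57.2 and 49.8 at 10 µM and changed by 1.91 ± 0.23 (adjusted p = 0.000544). Isg15, a target of type I interferon, measured 32.8, 23.4 and 21.7 in the naive libraries and 3.11, 4.45 and 6.32 at 10 µM and fell, a change of -2.28 ± 0.38 (adjusted p = 0.002). Gbp2, another interferon-gamma target, measured 0, 15.6 and 2.17 in the naive libraries and 30.2, 36.7 and 28.7 at 10 µM and changed by 3.13 ± 0.92 (adjusted p = 0.0228), a call lost without naive 3 or any 1 of the 10 µM libraries (adjusted p from 0.0589 to 0.0771). In the 1.0 µM cells Igtp differed from the naive libraries by -0.01, Gbp2 by 0.71 and Psmb8 by 2.47.

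**Figure D3:**
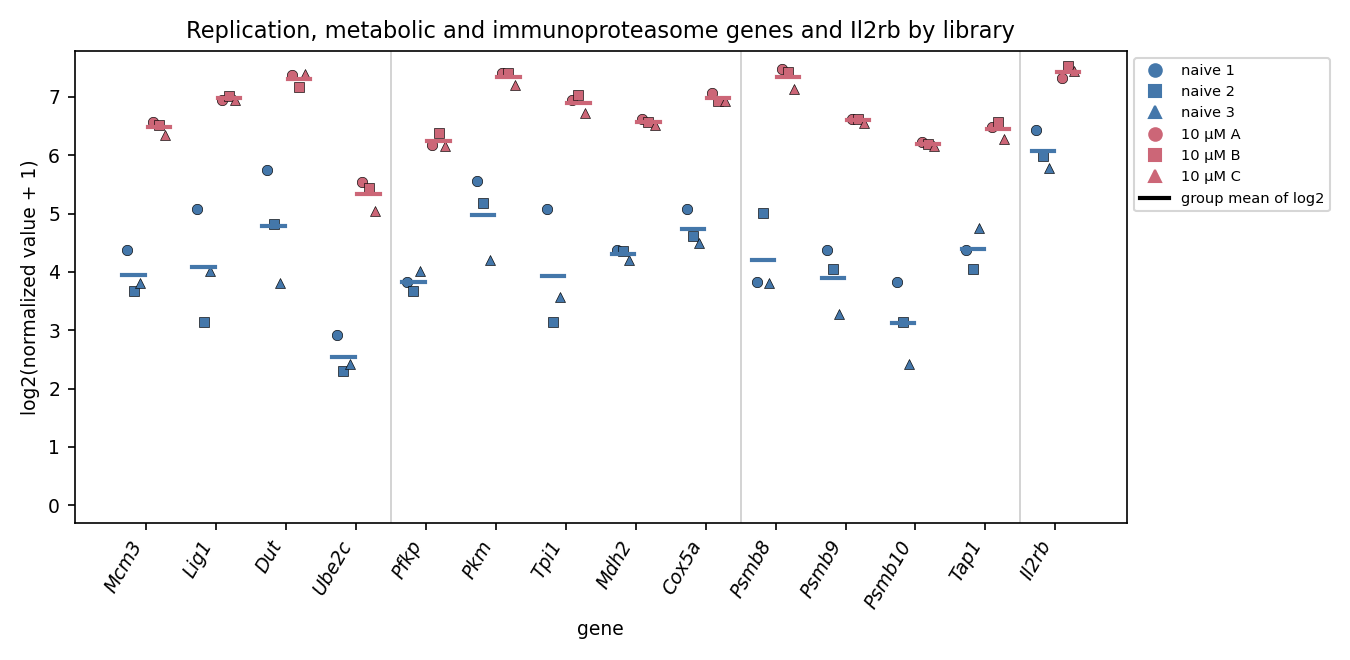
The plot shows log2(normalized value + 1) of 14 genes that rose, in each naive library (blue) and each 10 µM library (red), with bars at the group means. Every 10 µM point lies above every naive point of its gene, and naive 1 is the highest naive library for most of them, among them Lig1, Dut, Pkm and Tpi1.

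Chaperone genes moved both ways, and most cytoskeleton genes that were called rose. Of 17 chaperonin and heat shock genes, all past the filter, 7 rose and 3 fell, beside 17.1% and 36.5% of all genes tested. Cct7, a subunit of the chaperonin that folds actin and tubulin, measured 91.7, 50.8 and 69.3 in the naive libraries and 194, 197 and 184 at 10 µM, a change of 1.47 ± 0.23 (adjusted p = 0.0014). The genes that fell were Hspa1a and the HSP90 genes Hsp90aa1, with a change of -2.21 ± 0.37 (adjusted p = 0.00204), and Hsp90ab1, whose change of -0.62 ± 0.11 (adjusted p = 0.00246) was 0.032 and not called with equal totals. In the endoplasmic reticulum, P4hb, a disulfide isomerase, rose by 2.23 ± 0.36 on the log2 scale (adjusted p = 0.00169). Hspa5, the chaperone BiP, measured 209.7, 409.9 and 359 in the naive libraries and 97.7, 112 and 112 at 10 µM and changed by -1.54 ± 0.25 (adjusted p = 0.00186). Of 22 actin and tubulin genes past the filter, of 24 listed, 12 rose and 1 fell. Tubb5, a beta tubulin of dividing cells, measured 105, 35.1 and 32.5 in the naive libraries and 290.1, 294 and 286 at 10 µM and changed by 2.53 ± 0.41 (adjusted p = 0.00183). Cfl1, the actin-severing protein cofilin, changed by 1.42 ± 0.30 (adjusted p = 0.00539). Tmsb4x, which buffers actin monomers, changed by -0.59 ± 0.13 (adjusted p = 0.00658), a fall that was 0.058 and not called with equal totals.

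Survival genes were mixed, with 3 higher and 4 lower of 11 that passed the filter. The lower calls lay near the 36.5% of all genes tested, of which 17.1% were higher. Mcl1, a pro-survival BCL2 relative, measured 111, 144 and 210.1 in the naive libraries and 28.8, 30.1 and 37.0 at 10 µM, a change of -2.20 ± 0.26 (adjusted p = 0.000494). Bcl2l11, which encodes the death-promoting BIM, measured 19.7, 74.2 and 84.5 in the naive libraries and 3.39, 1.71 and 3.45 at 10 µM and changed by -3.76 ± 0.58 (adjusted p = 0.00147). Bak1, an effector of mitochondrial death, measured 13.1, 11.7 and 10.8 in the naive libraries and 42.1, 39.0 and 42.5 at 10 µM and rose, a change of 1.72 ± 0.24 (adjusted p = 0.000939). Birc5, which encodes survivin and acts in mitosis, measured 72.1, 19.5 and 8.66 in the naive libraries and 159, 143 and 145 at 10 µM and changed by 2.62 ± 0.64 (adjusted p = 0.011). Naive 1 held the highest naive Birc5 value, and without it the change was 3.41. Bcl2 itself was not called (adjusted p = 0.918).

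Under the stricter rule the 3 genes that fell furthest were neutrophil genes. S100a8, a subunit of the neutrophil protein calprotectin, measured 472, 558 and 420.1 in the naive libraries and 3.11, 3.77 and 3.64 at 10 µM, a change of -6.74 ± 0.20 (adjusted p = 6.52e-06). S100a9, its partner, measured 236, 406 and 375 in the naive libraries and 2.82, 2.40 and 2.87 at 10 µM and changed by -6.49 ± 0.27 (adjusted p = 2.28e-05). Camp and Ngp, genes of neutrophil granules, measured 78.6, 121 and 95.3 against 0.847, 0 and 0.192 and 91.7, 117 and 145 against 1.69, 0.343 and 2.11 (naive against 10 µM). All 6 listed neutrophil markers were in the table, 5 passed the filter and all 5 fell. Myeloid and dendritic markers summed to 124.9 to 160.3 in naive cells and 27.6 to 28.1 at 10 µM, and 3 of 3 tested fell. T cell markers summed to 806 to 968 and 841 to 1001, which overlapped on the authors' scale. As a share of all values in named genes they made up 0.443% to 0.466% in naive cells and 0.666% to 0.780% at 10 µM, with no overlap. Of 8 tested T cell markers 2 were higher and 1 lower, and with equal totals 6 and 1, with a median of 1.36. The 3 B cell markers found, of 10 listed, summed to 6.55 to 39.0 and 14.7 to 19.2, and the fibroblast markers to 13.1 to 28.2 and 6.78 to 9.59, beside a mean of 469 in P13.9 cells. Erythroid markers summed to 19.7 to 50.8 and 0.565 to 4.796. Subtracting the P13.9 share estimated from 7 fibroblast markers, 1.12% to 1.48% of the P13.9 level at 10 µM, left 1871 calls. What share of the other falls came from neutrophils was not tested.

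Outside the lists, the remaining large falls were Malat1, Rgs2, Napb, Hycc2 and a locus that the table names only by its identifier, ENSMUSG00000110869. Malat1, a nuclear long noncoding RNA, measured 531, 1015 and 1130.4 in the naive libraries and 19.2, 9.25 and 20.9 at 10 µM, a change of -5.68 ± 0.38 (adjusted p = 0.000114). Rgs2, a brake on G protein signalling, measured 78.6, 113 and 141 in the naive libraries and 1.13, 0.343 and 1.34 at 10 µM and changed by -5.85 ± 0.38 (adjusted p = 0.000114). Napb, a vesicle fusion adaptor known mostly from brain, had 48 naive reads and 2 at 10 µM, a ratio per size factor, naive over 10 µM, of 322 (exact 95% counting interval 84.4 to 2735). By RefSeq gene bounds, the median genomic span was 37.8 kb for 1214 lower genes, 10.4 kb for 588 higher genes and 21.5 kb for all 3382 with a match, and 16.9%, 1.36% and 9.14% of them were longer than 100 kb. The remaining large rises were Cdca3, Reep4, Lsm4, Acsl5, Nans, Ccna2, Vdac1 and AW112010. The call of Acsl5, which activates fatty acids, was lost without naive 2, naive 3 or any 1 of the 10 µM libraries (adjusted p from 0.0561 to 0.0712). That of Ccna2, which encodes cyclin A2, was lost without naive 2, naive 3 or any 1 of the 10 µM libraries (adjusted p from 0.0724 to 0.0988), and that of Vdac1, a channel of the outer mitochondrial membrane, without naive 3 or any 1 of the 10 µM libraries (adjusted p from 0.0536 to 0.0665). Lsm4, a splicing particle subunit, had 3 naive reads and 670 at 10 µM, a ratio per size factor of 16.6 (exact 95% counting interval 5.67 to 80.9). Nans, an enzyme of sialic acid synthesis, measured 0, 7.81 and 6.50 in the naive libraries and 46.6, 51.0 and 47.5 at 10 µM and changed by 3.61 ± 0.79 (adjusted p = 0.00687). Actb, the cytoplasmic actin often used as a control, was not constant: it measured 767, 387 and 286 in the naive libraries and 1098, 1065 and 968 at 10 µM, a change of 1.24 ± 0.32 (adjusted p = 0.0143), and the call was lost without naive 2 (adjusted p = 0.0565).

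**Figure D4:**
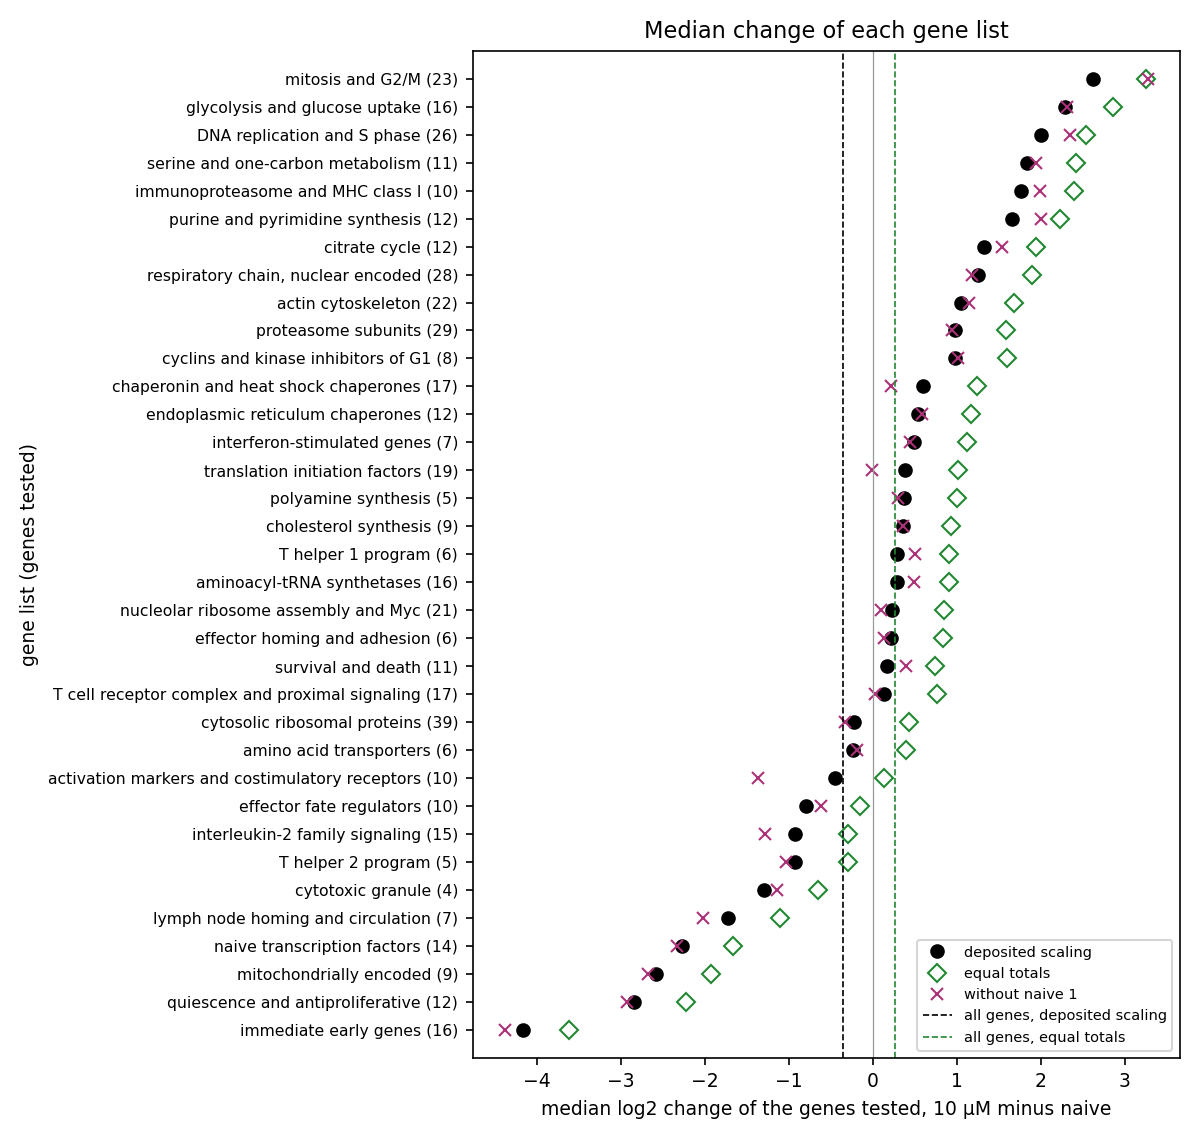
The plot gives the median log2 change (10 µM minus naive) of the genes tested in each of 35 lists, with the deposited scaling (black), equal totals (green diamonds) and without naive 1 (crosses), and dashed lines for all genes. Medians run from -4.17 for immediate early genes to 2.62 for mitosis, and equal totals move every list to the right.

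To see which of these levels differed between the strongest signal and weaker ones, the 10 µM libraries were set against the mean of the 0.01, 0.1 and 1.0 µM groups in the 12 activated libraries. Of the same 3484 genes 355 were called, or 10.2%, with 163 higher and 192 lower at 10 µM. The count fell when any 1 of the 10 µM libraries was left out: it was 70 without 10 µM A, 91 without B and 156 without C. It also changed with the P13.9 signal: the P13.9 share was 32.2% to 64.9% of the P13.9 level at 0.01 µM and 3.26% to 36.3% at 0.1 and 1.0 µM, and subtracting it left 62 calls. The lower doses came from both runs of sample numbers, and against 0.1 µM alone, the dose in the run of 10 µM, 64 genes were called. The genes below are part of those called with all lower doses, both as deposited and after the subtraction. Tbx21 measured 1.04 ± 0.124, 7.89 ± 2.37 and 9.72 ± 2.35 at 0.01, 0.1 and 1.0 µM, against 17.5 ± 1.56 at 10 µM, a difference of 1.69 ± 0.20 (adjusted p = 0.000304) from the 3 lower doses. Gata3 measured 81.6 ± 5.96, 71.0 ± 8.56 and 62.0 ± 14.9 at 0.01, 0.1 and 1.0 µM, against 36.3 ± 4.30 at 10 µM, a difference of -0.95 ± 0.14 (adjusted p = 0.00136). The highest dose thus held the highest mean of Tbx21 and the lowest mean of Gata3 among the 4 doses.

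With the values as deposited, of 7 tested interferon-stimulated genes 3 were higher at 10 µM than below it. Of 10 tested immunoproteasome and class I genes 4 were, beside 4.68% of all genes tested. These list counts were not taken after the subtraction. The class I list summed to 1058, 1939 and 1765 at 0.01, 0.1 and 1.0 µM, against 1663 to 1875 at 10 µM and 1049 to 1248 in P13.9 cells. None of either list was lower. Gbp2 measured 6.70 ± 1.45, 7.21 ± 1.66 and 5.55 ± 2.72 at 0.01, 0.1 and 1.0 µM, against 31.9 ± 4.21 at 10 µM, a difference of 2.18 ± 0.25 (adjusted p = 0.00028). Igtp measured 12.9 ± 1.93, 12.5 ± 4.72 and 13.5 ± 3.63 at 0.01, 0.1 and 1.0 µM, against 52.5 ± 4.07 at 10 µM, a difference of 1.98 ± 0.22 (adjusted p = 0.000245). In both the lower doses lay near the naive means of 5.93 and 13.3. The difference was 1.05 ± 0.11 (adjusted p = 0.000141) for Psmb10 and 0.64 ± 0.10 (adjusted p = 0.0025) for Irf1. Lower at 10 µM were Gzma, with 8.16 ± 0.663, 88.4 ± 14.1 and 91.5 ± 27.3 at 0.01, 0.1 and 1.0 µM, against 4.38 ± 1.37 at 10 µM, a difference of -2.99 ± 0.18 (adjusted p = 9.06e-07), and Maf, with 18.9 ± 3.80, 15.8 ± 2.47 and 19.3 ± 5.77 at 0.01, 0.1 and 1.0 µM, against 3.09 ± 0.925 at 10 µM, a difference of -2.22 ± 0.21 (adjusted p = 6.54e-05). Gzma at 0.01 µM lay near the 10 µM mean, while both middle doses were high. The difference was -1.23 ± 0.15 (adjusted p = 0.000304) for Icos, with a mean of 7.71 at 10 µM against 15.2 to 23.8 below it, and -0.81 ± 0.13 (adjusted p = 0.00245) for Cd44. These 10 genes kept an adjusted p below 0.05 without any 1 of the 10 µM libraries, the largest being 0.0289 for Irf1. Other genes that met the same rule are given further below. Of those S100a8 also kept its call (largest adjusted p = 0.0478), while Il13, Ptprc, Nfil3 and Cdk6 did not. The 10 genes therefore do not show how firm such calls were in general. Against 0.1 µM alone 8 of the 10 were called, among them Tbx21 (1.09 ± 0.25, adjusted p = 0.0466) and Gata3 (-0.95 ± 0.17, adjusted p = 0.0118), and Irf1 (0.45 ± 0.12, adjusted p = 0.0902) and Cd44 (-0.44 ± 0.16, adjusted p = 0.176) were not.

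**Figure D5:**
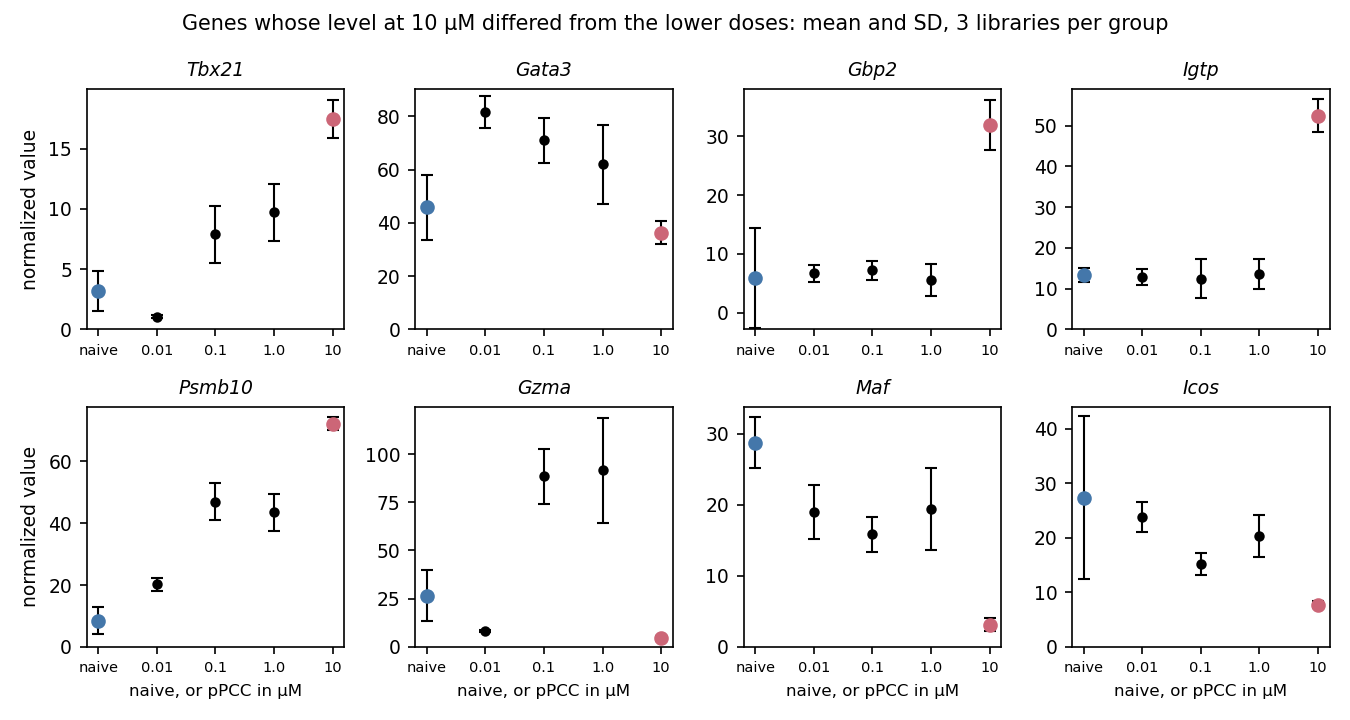
Each panel shows the mean normalized value ± SD (3 libraries per group) of 1 gene in naive cells (blue), at 0.01, 0.1 and 1.0 µM (black) and at 10 µM (red). Tbx21, Gbp2, Igtp and Psmb10 are highest at 10 µM, where Gata3, Gzma, Maf and Icos have their lowest mean.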

How the data were processed

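The deposited table holds signal values, gene counts that the authors divided by 1 size factor per library (DESeq2 normalized counts, per the submitters' processing notes), for 15808 features in 18 libraries. The build mm10, HTSeq 0.9.1, STAR 2.6.1d and FastQC 0.11.8 are named there too. Dividing each value by its library's smallest step gave whole reads for 99.99965% of values (tolerance 1e-05), which supplied the depths. The 111 features without a name were left out, those named only by an Ensembl identifier (43 of the genes tested) were kept, and 13864 of 15697 names matched a RefSeq symbol.

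Groups came from the sample titles. The test was limma 3.58.1 (R 4.3.3) with lmFit and eBayes (trend) on log2(value + 1) in the 6 libraries, over the genes whose mean reached 10, with Benjamini-Hochberg adjustment over all of them and calls at an adjusted p below 0.05. The doses were compared in the same way in the 12 activated libraries. The procedure was also run on simulated data with the same spread in every library, unlike the uneven naive libraries here. No result above draws on that run. Alternatives were other pseudocounts and filters, equal totals, TMM (edgeR 4.0.16) and quantile scaling, array weights, a fit of the 15 T cell libraries, edgeR, DESeq2 1.42.0 and voom on the recovered reads, thinning to the naive depth, subtraction of the P13.9 share, and leaving out each library. The 3 further settings for the Tbx21 value of naive 1 and the comparison with 0.1 µM alone were chosen after seeing the data. Counting intervals are exact at 95% and cover counting error only.

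Replicate letters did not pair the samples, since deviations of same-letter libraries from their group means correlated at -0.22 to 0.22. Members and gene lists were chosen with earlier results of these data known. Genes named are the 12 largest rises and the 12 largest falls under the stricter rule, and in each list the 4 members with the smallest adjusted p, the member with the largest and any called member against the majority, with 19 genes of T cell biology. Trac, Cd4, Cd8a, Cxcr3, Dusp1, Ppp1r15a, Fosb, Il2rg, Il4, Mcm5, Mcm6 and Mcm7 were added after their values were seen. Promoters are RefSeq sequences of GRCm38.p6. Values of 3 listed genes are not reported here, though the genes stay in the fits and in the counts of their lists.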

Additional observations from a re-analysis of the deposited data

Results flagged for a closer look

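For 15 genes described above or in the same lists, the level at 10 µM differed from the mean of the 3 lower doses by the limma test of that difference in the 12 activated libraries, both as deposited and after subtraction of the P13.9 share. Higher at 10 µM were Gbp2 by 2.18, Igtp by 1.98, Tbx21 by 1.69, Psmb10 by 1.05 and Irf1 by 0.64 on the log2 scale. Lower at 10 µM were Gzma (-2.99), Maf (-2.22), the neutrophil gene S100a8 (-1.48), Icos (-1.23), the cytokine gene Il13 (-1.07), Gata3 (-0.95), the G1 kinase gene Cdk6 (-0.87), Cd44 (-0.81), Ptprc (-0.59) and Nfil3 (-0.47), a repressor of T helper 2 cytokine genes. S100a8 measured 27.8 ± 2.15, 9.56 ± 4.58 and 6.26 ± 2.84 at 0.01, 0.1 and 1.0 µM, against 3.50 ± 0.351 at 10 µM. Cdk6 measured 92.4 ± 15.5, 72.4 ± 10.2 and 72.4 ± 28.3 at 0.01, 0.1 and 1.0 µM, against 41.8 ± 6.33 at 10 µM, and Nfil3 measured 11.3 ± 1.61, 35.7 ± 5.43 and 27.8 ± 1.33 at 0.01, 0.1 and 1.0 µM, against 15.9 ± 1.16 at 10 µM. Nfil3 was thus low at both ends of the doses, and the S100a8 mean was highest at the lowest dose. Il13 measured 34.7 ± 4.43, 14.5 ± 5.32 and 21.1 ± 7.44 at 0.01, 0.1 and 1.0 µM, against 10.1 ± 3.78 at 10 µM. Calls were lost without 1 of the 10 µM libraries for Il13 (adjusted p from 0.0642 to 0.186), Ptprc (from 0.0883 to 0.168), Nfil3 (from 0.109 to 0.129) and, without A or B, Cdk6 (adjusted p = 0.0975 and 0.0677). Against 0.1 µM alone, the dose in the same run of sample numbers as 10 µM, 9 of the 15 were called, and S100a8, Il13, Cdk6, Cd44, Ptprc and Irf1 were not (adjusted p from 0.0885 for S100a8 to 0.636 for Ptprc).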

How the results depend on the processing

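The count of genes called between 10 µM and naive cells was 1868. It was 1046 of 1661 with a mean of at least 20, 3962 of 15279 with no filter and 3029 of 7263 for genes that reached 5 in 3 or more T cell libraries, where other numbers of genes were tested. Without 1 library it ran from 1307 (10 µM B) to 2395 (naive 1), with 1310 without A and 1375 without C. The other 12 settings gave 1564 to 2385. The count against the 3 lower doses was 355. It was 568 with no filter (134 higher and 434 lower), 781 with array weights, 548 with edgeR, 62 after subtraction of the P13.9 share, 64 against 0.1 µM alone, and 70 to 156 without 1 of the 10 µM libraries. The remaining settings gave 243 to 419, with 410 under equal totals (233 higher and 177 lower). The cause of these differences was not tested.

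Lef1 turned from 0.03 to -1.57 without naive 1, a library in which it had no read, and was 0.91 without naive 3. Other signs turned with the scaling: with equal totals Uqcrh was 0.58, Myh9 0.56, Hsp90ab1 0.032 and Tmsb4x 0.058. With quantile normalization Trbc1 was 0.41, mt-Nd1 0.066 and Hsp90ab1 0.42, and with DESeq2 Tmsb4x was 0.0034. A change of sign was counted only where one of the 2 values was called. Of the 210 genes examined, 140 kept their direction and call in all 21 settings. The median of the ribosomal protein list turned from -0.22 to 0.42 with equal totals and that of the amino acid transporters from -0.24 to 0.39.

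No paired analysis was possible because the naive columns carry numbers where the 10 µM columns carry letters. Among the activated libraries a fit with the letter as a replicate block gave 243 calls against the lower doses in place of 355.

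Depth limits the naive side: 1 read there was worth 2.17 to 6.55, so a gene whose value in naive cells was below that could only appear as 0 or as a single read, and rises from few reads have wide intervals.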
